A study of Mus musculus with 74 samples.

Results

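RNA levels of 41 lysosomal genes were followed in the mouse macrophage line RAW264.7 and in 2 lines derived from it in work on the histone variant H3.3. The 41 genes encode 10 lysosomal proteases, 8 glycosidases and lipases, 3 soluble cofactors, 7 lysosome membrane proteins, the transcription factors TFEB and TFE3, and the V-ATPase, for which 4 membrane-sector subunits, 6 cytosolic-sector subunits and 1 accessory protein were listed. They were listed by gene symbol, with no measured value in the rule but with earlier results of these data known. All 41 were found among the 24851 genes of the RNA tables, and all 41 passed the filter on low values. The lines were 264 and 3205, compared with wild-type RAW264.7 cells (RAW), all 3 carrying a tissue tag that names bone marrow derived macrophages. Each was sampled at 0, 60 and 120 min of lipopolysaccharide (LPS), the bacterial ligand of TLR4, with 2 libraries in each of 9 groups, 18 in all. The study describes hypomorphic RAW264.7 lines and CRISPR double knockouts of H3f3a and H3f3b, the 2 genes for H3.3, but the labels do not say which kind 264 or 3205 is, nor whether each line is 1 clone. The sources used here give no LPS dose for these lines. Nothing says that the 2 libraries of a group came from separate cultures, so every p below rests on library-to-library spread that may be technical.

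Lysosomes break down proteins, glycans and lipids taken up or delivered by autophagy. Their hydrolases work at acid pH, which the V-ATPase sets: its V1 sector hydrolyses ATP in the cytosol and its V0 sector carries protons across the membrane. TFEB and TFE3, of the MiT/TFE family, move to the nucleus when mTORC1 signalling falls and bind an E-box-like element in the promoters of many lysosomal genes. Macrophages are rich in lysosomes because they digest what they engulf, and endosomal proteases in them also cut antigens and activate some Toll-like receptors.

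E-box letters of that element, not the whole of it, were looked for in RefSeq promoter windows. These windows (GRCm38.p6, from 250 bases before to 50 after a start site) were at hand for 35 of the 41 genes. The letters TCACGTG, or CACGTGA read on the other strand, lay in the windows of 12 of the 35 genes (34.3%) and of 4.29% of all 27025 genes with a window. The 2 forms overlap in TCACGTGA, counted here as 1 site. The core CACGTG alone was in 13 of 35 (37.1%), against 8.09% of all genes. The 12 genes with the longer form were Ctsa, Ctsd, Lgmn, Gaa, Gla, Glb1, Lamp1, Mcoln1, Cln3, Atp6v0b, Atp6v0d1 and Atp6v1a. Some genes have more than 1 start site and window, and a match in any window of a gene counted. Ctsa, Lgmn and Cln3 have 2 windows each and a match in only 1 of them. A match describes letters and is not a measured binding site. The 150 bases before the start site are given here, 5′ to 3′ on the strand of the gene with matches in capitals. They are given for 5 genes that hold a match and differ in what they did in the data. Grn, which holds none and was lower in 264, is given too. Lamp1 (chr8:13159011-13159160, plus strand) holds 4 sites, Mcoln1 (chr8:3500369-3500518, plus strand) 2, Ctsd (chr7:142387828-142387977, minus strand) 1, Gaa (chr11:119267813-119267962, plus strand) 1, Atp6v0b (chr4:117887330-117887479, minus strand) 2, and Grn (chr11:102430357-102430506, plus strand) 0.
Lamp1: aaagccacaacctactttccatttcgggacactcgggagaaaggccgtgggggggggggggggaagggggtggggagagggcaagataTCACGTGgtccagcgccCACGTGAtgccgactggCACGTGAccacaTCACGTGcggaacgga
Mcoln1: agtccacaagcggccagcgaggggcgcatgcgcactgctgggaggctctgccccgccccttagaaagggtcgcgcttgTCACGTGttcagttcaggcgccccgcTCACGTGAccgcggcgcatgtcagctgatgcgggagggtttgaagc
Ctsd: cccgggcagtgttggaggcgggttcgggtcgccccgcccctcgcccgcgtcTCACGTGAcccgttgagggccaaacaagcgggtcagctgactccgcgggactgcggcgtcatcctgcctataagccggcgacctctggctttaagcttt
Gaa: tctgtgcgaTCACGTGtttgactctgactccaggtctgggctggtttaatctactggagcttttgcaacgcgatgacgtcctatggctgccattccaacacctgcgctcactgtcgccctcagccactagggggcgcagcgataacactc
Atp6v0b: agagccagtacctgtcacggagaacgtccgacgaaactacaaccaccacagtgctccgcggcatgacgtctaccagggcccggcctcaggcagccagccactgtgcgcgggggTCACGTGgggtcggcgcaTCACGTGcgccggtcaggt
Grn: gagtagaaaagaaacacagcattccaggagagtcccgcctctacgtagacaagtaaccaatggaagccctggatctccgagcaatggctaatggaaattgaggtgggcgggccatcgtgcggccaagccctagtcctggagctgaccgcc

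Libraries held 13084927 to 53860392 reads, with 16108 to 18950 genes detected by 1 read or more. Values are the authors' read counts divided by 1 size factor per library, called normalized reads below. They are not per length, so levels of different genes are not compared. H3f3a ranged over 172 to 236 normalized reads in 264 and 37.5 to 76.2 in 3205, against 2055 to 3109 in RAW. H3f3b ranged over 5642 to 17764 in 264 and 7177 to 13284 in 3205, against 13623 to 34155 in RAW. At 0 min it was at 5642 and 7145 in 264, 7177 and 7437 in 3205, and 15367 and 13623 in RAW. At each time every H3f3b value of either derived line lay below both RAW values of that time. Of 10 macrophage markers looked for, 9 were in the tables and all 9 had a mean above 1. Their summed level was 142174 to 224902 in 264 and 204380 to 277114 in 3205, against 373119 to 490743 in RAW, and most of that gap was lysozyme 2 (Lyz2), with 38736 to 66339 in 264 and 71652 to 120892 in 3205, against 202009 to 294095 in RAW. The macrophage receptor gene Csf1r was at 42390.3 to 65017 in 264 and 50924 to 63679 in 3205, against 57072 to 68216 in RAW. The 4 B cell markers in the tables summed to 22.2 to 152 normalized reads in 3205, against 1.48 to 6.11 in the other lines, nearly all of it Cd79b, and Pax5 had a mean of at most 0.331 in any group. Of 6 fibroblast markers 4 were in the tables, and they summed to at most 3.48 normalized reads in any library. Pdgfra and Dcn, 2 of them, had group means of at most 0.864. In RAW at 0 min, 264 at 60 min and 3205 at 120 min, 1 of the 4 had a mean of at least 1. Of 7 osteoclast markers 6 were in the tables, and they summed to 64.0 to 125 normalized reads in 264 and 469 to 2245 in 3205, against 339 to 2994 in RAW. The part of these levels in the results below was not tested.

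**Figure D1:**
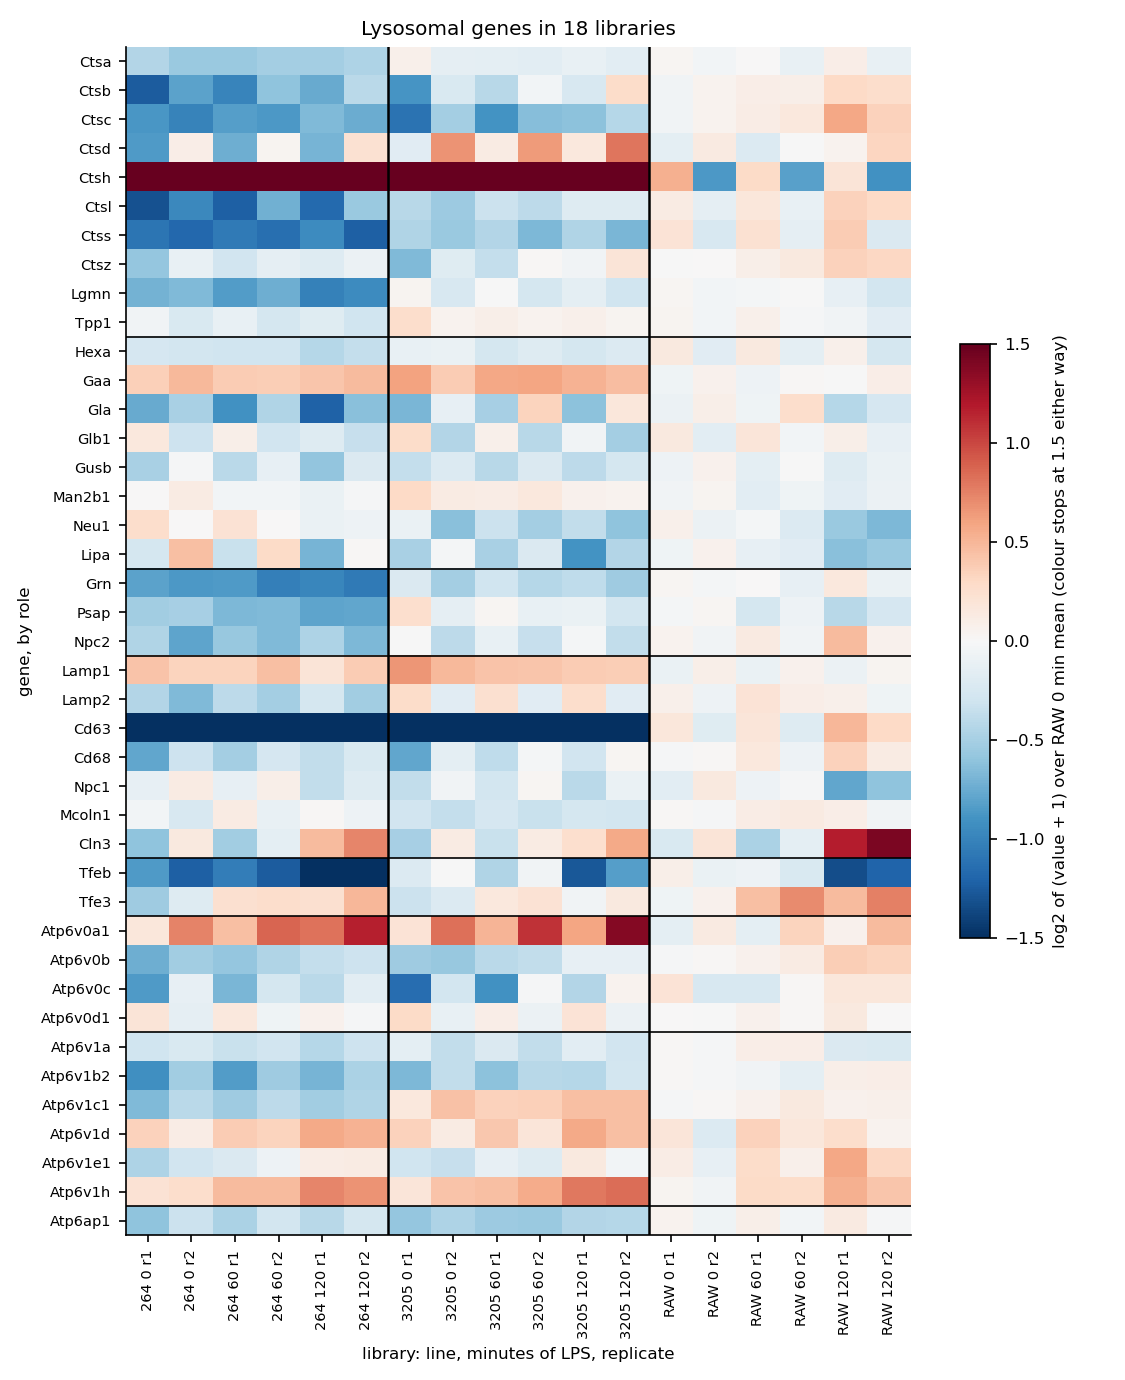
Heat map of the 41 genes (rows, ordered by role) in the 18 libraries (columns, by line, minutes of LPS and replicate). Colour is log2 of the normalized reads plus 1 over the mean of the RAW 0 min libraries plus 1, and stops at 1.5 either way. Ctsh is red in every 264 and 3205 library, Cd63 is blue in them all, and most proteases are blue in 264.

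The 41 genes took 1.06% to 1.30% of the reads in 264 libraries and 1.45% to 1.58% in 3205 libraries, against 1.41% to 1.61% in RAW libraries. At 0 min 264 differed from RAW in 17 of the 41 genes, 15 lower and 2 higher, by limma on log2 of normalized reads plus 1 with Benjamini-Hochberg adjustment over all genes tested (adjusted p below 0.05). Of all genes tested 13.2% were called in that comparison, 5.57% lower and 7.61% higher, and among the 8222 genes whose mean over the 18 libraries reached 500 normalized reads, a level that all 41 reached, 14.9% were. The median log2 fold change was -0.37 over the 41 genes, 0 over all genes and -0.02 over those 8222. At 60 min 17 of 41 were called (15 lower, 2 higher), where 15.3% of all genes were (6.8% lower, 8.46% higher) and 17.5% of the 8222. At 120 min 13 were called (12 lower, 1 higher), where 13.5% of all genes were (6.13% lower, 7.33% higher) and 15.3% of the 8222. Over the 3 times 18 of the 41 genes were called at least once and 13 were called each time. How many of all genes were called at all 3 times was not counted. The libraries differ between times but come from the same 2 lines, and those of 1 replicate number deviated together, so the times are not independent repeats. In a fit that pairs the libraries by replicate number the 120 min count was 26, where 4415 of all 17450 genes were called, against 2348 without pairing. With 1 library left out, the 0 min count was 7 without RAW replicate 1, 8 without RAW replicate 2, 10 without 264 replicate 1 and 13 without 264 replicate 2. At 60 min it was 8 without RAW replicate 1, 9 without RAW replicate 2, 8 without 264 replicate 1 and 10 without 264 replicate 2. At 120 min it was 8 without RAW replicate 1 and without 264 replicate 2, and 9 without either of the other libraries. Under the other settings tried, the 0 min calls of Psap and Atp6ap1 were each lost in 6 of 11, TMM scaling among them, and those of Gaa and Npc2 in 3 of 11. Those of Atp6v1b2 and Atp6v1c1 were lost without limma's trend and with only the compared groups fitted, that of Ctsb without the trend, and those of Ctsa and Atp6v0b with only the compared groups fitted. In bulk RNA fewer cells of a type and less RNA per cell cannot be told apart.

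The 2 genes that stood furthest from RAW were Ctsh and Cd63. Ctsh, at chr9:90054267-90076095 (GRCm38.p6, as for the genes below), encodes cathepsin H, a protease that trims the amino end of proteins. In 264 it was at 26491 and 22264 normalized reads at 0 min, 22596 and 18729 at 60 min and 18736 and 18622 at 120 min. In 3205 it was at 25510.0 and 10586, 17516 and 9042, and 16601 and 9268 at the same times. In RAW it was at 380.0 and 144, 321 and 148, and 299.7 and 139. Every library of either derived line lay far above every RAW library, and replicate 1 was above replicate 2 in each of the 9 groups. The log2 fold change at 0 min was 6.69 ± 0.55 (SE, n = 2 each, limma adjusted p = 3.9e-05) in 264 and 6.13 ± 0.55 (adjusted p = 7.4e-05) in 3205, against the same RAW libraries.

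Cd63, at chr10:128896231-128912822, encodes a tetraspanin of late endosome and lysosome membranes that is also carried on exosomes. In 264 it was at 9.1 and 9.41 normalized reads at 0 min, 8.34 and 6.05 at 60 min and 6.87 and 7.34 at 120 min. In 3205 it was at 668 and 518, 644 and 578, and 838 and 782, and in RAW at 4138 and 3247, 4199.6 and 3226, and 5212 and 4531. The 3 lines form separate levels, lowest in 264 and highest in RAW, at every time. At 0 min the log2 fold change against RAW was -8.48 ± 0.23 in 264 (limma adjusted p = 4.7e-08) and -2.64 ± 0.23 in 3205 (adjusted p = 5.5e-05), and 3205 was above 264 by 5.84 ± 0.20 (adjusted p = 6.5e-09). Its values in 264 rest on as few as 6 reads in a library. A pseudogene, Cd63-ps, is annotated, and which reads came from it was not tested. Of the 41 genes 14 are overlapped by another annotated gene, Ctsa, Ctsb, Ctss, Tfe3 and Atp6v0b among them.

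**Figure D2:**
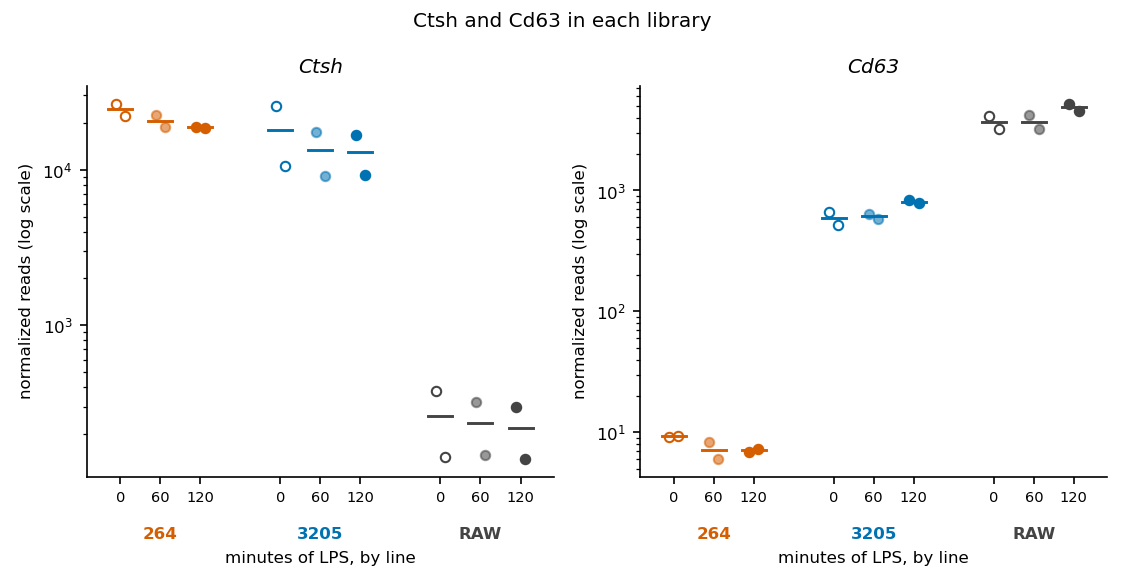
Normalized reads (log axis) of Ctsh (left) and Cd63 (right) in each library against minutes of LPS, by line (264 orange, 3205 blue, RAW grey). Points are libraries, 2 per group, and bars are group means. Ctsh is at 9042 or more in every library of 264 and 3205 and at 380.0 or less in RAW, and Cd63 is at 9.41 or less in 264.

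Among the 10 proteases, 6 were lower and 1 higher in 264 than in RAW at 0 min, and 3 did not pass the test, where 5.57% of all genes were lower and 7.61% higher. Ctsl and Ctss encode cathepsins L and S, cysteine proteases with known roles in antigen processing. Ctsl was at 5964 and 7582 normalized reads in 264 and 16145 and 13468 in RAW at 0 min. Ctss was at 10245 and 9638 in 264 and 25225 and 18498 in RAW. In both the 264 libraries lay below the RAW libraries with no overlap, with log2 fold changes of -1.13 ± 0.19 for Ctsl (SE, limma adjusted p = 0.003) and -1.12 ± 0.17 for Ctss (adjusted p = 0.002). Both were again lower at 60 and 120 min (Ctsl -0.998 and -1.18, Ctss -1.15 and -1.17). Leaving out any 1 library kept both at 0 min, but the Ctsl call at 60 min was lost without 264 replicate 1 or RAW replicate 1, and the Ctss call at 120 min was lost without 264 replicate 2 or RAW replicate 1. In 3205 at 0 min Ctsl was at 11141 and 10155 and Ctss at 15962 and 14915, between 264 and RAW with no overlap with either. Neither passed against RAW there (-0.47 ± 0.19, adjusted p = 0.14 for Ctsl and -0.49 ± 0.17, adjusted p = 0.10 for Ctss), and Ctss passed at 60 min (-0.61 ± 0.17, adjusted p = 0.043), a call lost without 3205 replicate 1, 3205 replicate 2 or RAW replicate 1 and in 6 of 10 other settings.

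Cathepsin C (Ctsc), the exopeptidase that activates granule serine proteases, was at 2459.9 and 2259.9 normalized reads in 264 and 4348 and 4677 in RAW at 0 min. Legumain (Lgmn), an asparaginyl endopeptidase, was at 11716 and 12039 in 264 and 19582 and 18646 in RAW. Neither gene's 264 and RAW libraries overlapped, and log2 fold changes were -0.94 ± 0.18 for Ctsc (limma adjusted p = 0.006, lost without RAW replicate 2) and -0.69 ± 0.13 for Lgmn (adjusted p = 0.007, lost without RAW replicate 1). Cathepsin B (Ctsb) was at 35842 and 48702 in 264 and 81686 and 88128 in RAW, -1.02 ± 0.25 (adjusted p = 0.024), a call lost without 264 replicate 1, RAW replicate 1 or RAW replicate 2. Ctsa, the protective protein that stabilises beta-galactosidase and neuraminidase, was at 18543 and 17188 in 264 and 25838 and 24602 in RAW, -0.50 ± 0.12 (adjusted p = 0.021), and this call was lost without any 1 of the 4 libraries (adjusted p 0.0546 to 0.135). Ctsd, Ctsz and Tpp1 did not pass. Cathepsin D (Ctsd) was at 18778 and 36256 in 264 and 30553 and 37021 in RAW, and 1 of its 264 libraries fell within the range of RAW. Cathepsin Z (Ctsz), a carboxypeptidase, was at 16329 and 22502 in 264 and 24261 and 24519 in RAW (-0.35 ± 0.20, adjusted p = 0.36), and tripeptidyl peptidase 1 (Tpp1) at 6915 and 6133 in 264 and 7411 and 6989 in RAW (-0.14 ± 0.12, adjusted p = 0.55).

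The 3 soluble cofactors were all lower in 264 at 0 min. Progranulin (Grn), precursor of the granulins, was at 12290.3 and 11738 normalized reads in 264 and 21764 and 20952 in RAW, with log2 fold changes of -0.83 ± 0.13 at 0 min (limma adjusted p = 0.002), -0.87 ± 0.13 at 60 min (adjusted p = 0.002) and -1.05 ± 0.15 at 120 min (adjusted p = 0.001). All 6 libraries of 264 (10263 to 12290.3) lay below all 6 of RAW (19562 to 23871), and no call of Grn in 264 was lost with 1 library left out. In 3205 Grn was at 14759 to 18417 over the 3 times, between 264 and RAW, and did not pass against RAW (-0.36 ± 0.13, adjusted p = 0.11 at 0 min). Prosaposin (Psap), precursor of the activators of sphingolipid hydrolases, was at 23105 and 23454 in 264 and 32425 and 34014 in RAW (-0.51 ± 0.15, adjusted p = 0.048), a call lost without any 1 library. Npc2, which hands cholesterol to NPC1, was at 6342 and 5013 in 264 and 8946 and 8354 in RAW (-0.62 ± 0.17, adjusted p = 0.035), a call lost without 264 replicate 2, RAW replicate 1 or RAW replicate 2. In both the 264 libraries lay below RAW.

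Of the 8 glycosidases and lipases only Gaa passed in either derived line. Gaa encodes the acid alpha-glucosidase that breaks down glycogen. It was at 3235 and 3546 normalized reads in 264 and 3842 and 3273 in 3205, against 2406 and 2641 in RAW at 0 min. Both derived lines lay above RAW with no overlap, by 0.43 ± 0.11 in 264 (limma adjusted p = 0.034) and 0.49 ± 0.11 in 3205 (adjusted p = 0.017). The 264 call was lost without any 1 library, and the 3205 call was lost without 3205 replicate 1 or RAW replicate 1. Hexa, Gla, Glb1, Gusb, Man2b1, Neu1 and Lipa ran from -0.62 (Gla) to 0.14 (Neu1) in 264 at 0 min and from -0.40 (Gla) to 0.21 (Man2b1) in 3205, none past the test. Hexa, the alpha subunit of beta-hexosaminidase, was at 6691 to 7568 in 264 and 7501 to 8410.5 in 3205, against 7488 to 9969 in RAW over the 3 times, and the 3 ranges overlapped. Glb1, beta-galactosidase, was at 1417 to 2009 in 264 and 1261 to 2173 in 3205, against 1613 to 2049 in RAW.

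Among the membrane proteins, Lamp1, the abundant lysosome glycoprotein whose promoter holds 4 sites above, was at 43230.3 and 40473 normalized reads in 264 and 50929 and 44806 in 3205, against 29942 and 34245 in RAW at 0 min. The libraries of both lines lay above those of RAW. Lamp1 passed in 3205 (0.58 ± 0.14, limma adjusted p = 0.020), a call lost without 3205 replicate 1 or RAW replicate 1, and not in 264 (0.39 ± 0.14, adjusted p = 0.10). Its partner Lamp2 was at 9865 and 8481 in 264 and 14066 and 12669 in RAW (-0.55 ± 0.18, adjusted p = 0.083). Cd68 (macrosialin) and the ion channel gene Mcoln1 (mucolipin 1, whose promoter holds 2 sites) did not pass in 264 or in 3205 at any time, with log2 fold changes of -0.55 and -0.15 in 264 and -0.46 and -0.32 in 3205 at 0 min.

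Tfeb was at 618 and 477 normalized reads in 264 and 962 and 1103 in 3205, against 1186 and 1039 in RAW at 0 min. The 264 libraries lay below those of RAW with no overlap, and those of 3205 overlapped RAW. The log2 fold change in 264 was -1.03 ± 0.18 at 0 min (limma adjusted p = 0.005, lost without RAW replicate 1), -0.99 ± 0.18 at 60 min and -1.004 ± 0.198 at 120 min, and in 3205 it was -0.11 ± 0.18 (adjusted p = 0.79). Tfe3 did not pass in 264 (-0.36 ± 0.14 at 0 min) and passed in 3205 only at 120 min (-0.57 ± 0.16, adjusted p = 0.045), a call lost without any 1 library and in 5 of 10 other settings. The family has 2 other genes. Mitf was at 521 to 1182 in 264 and 795 to 1572 in 3205, against 1642 to 6206 in RAW over the 3 times, and was called lower in 264 at 60 and 120 min (-2.88 ± 0.40 at 120 min, adjusted p = 0.001) and in 3205 at 120 min (-2.10 ± 0.40, adjusted p = 0.007). Tfec had 0 reads in both lines at 0 min, against 182 and 291 normalized reads in RAW. With a floor of 3 reads over the libraries of a group that is at least 178-fold lower in 264 and at least 157-fold lower in 3205 (limma adjusted p = 2.7e-06 and adjusted p = 3.3e-06).

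Of the V-ATPase subunits, Atp6v0b, which encodes the c'' proteolipid of the V0 ring and whose promoter holds 2 sites, was at 3007 and 3484 normalized reads in 264 and 3461 and 3383 in 3205, against 4938 and 5083 in RAW at 0 min. Every library of either line lay below RAW. The log2 fold change was -0.63 ± 0.11 in 264 (limma adjusted p = 0.003), a call that held without any 1 library, and -0.55 ± 0.11 in 3205 (adjusted p = 0.007), a call lost without RAW replicate 2. Atp6ap1, the accessory protein used in assembling the pump, was at 5550.4 and 6763 in 264 and 5644 and 6106 in 3205, against 8777 and 8095 in RAW (-0.46 ± 0.13, adjusted p = 0.042 in 264 and -0.52 ± 0.13, adjusted p = 0.023 in 3205). The 264 call of Atp6ap1 was lost without 264 replicate 1, RAW replicate 1 or RAW replicate 2, and the 3205 call lost without 3205 replicate 1, RAW replicate 1 or RAW replicate 2. In the V1 sector, Atp6v1b2, the widely expressed form of the B subunit, was at 5310.2 and 7009.8 in 264 and 10128 and 9944 in RAW (-0.72 ± 0.17, adjusted p = 0.019), a call lost without 264 replicate 1, RAW replicate 1 or RAW replicate 2. Atp6v1c1, the C subunit that holds V1 to V0, was at 4247 and 5077 in 264 and 6670.5 and 6798 in RAW (-0.54 ± 0.13, adjusted p = 0.022), a call lost without 264 replicate 1, RAW replicate 1 or RAW replicate 2. In both the 264 libraries lay below RAW. Atp6v1a, the catalytic A subunit, was called in 264 at 60 min alone, at 13747 and 14125 in 264 and 18459 and 18450.1 in RAW (-0.41 ± 0.12, adjusted p = 0.042) and not without any 1 library or in 4 of 10 other settings. Atp6v0a1, Atp6v0c, Atp6v0d1, Atp6v1d, Atp6v1e1 and Atp6v1h did not pass in either line at any time.

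**Figure D3:**
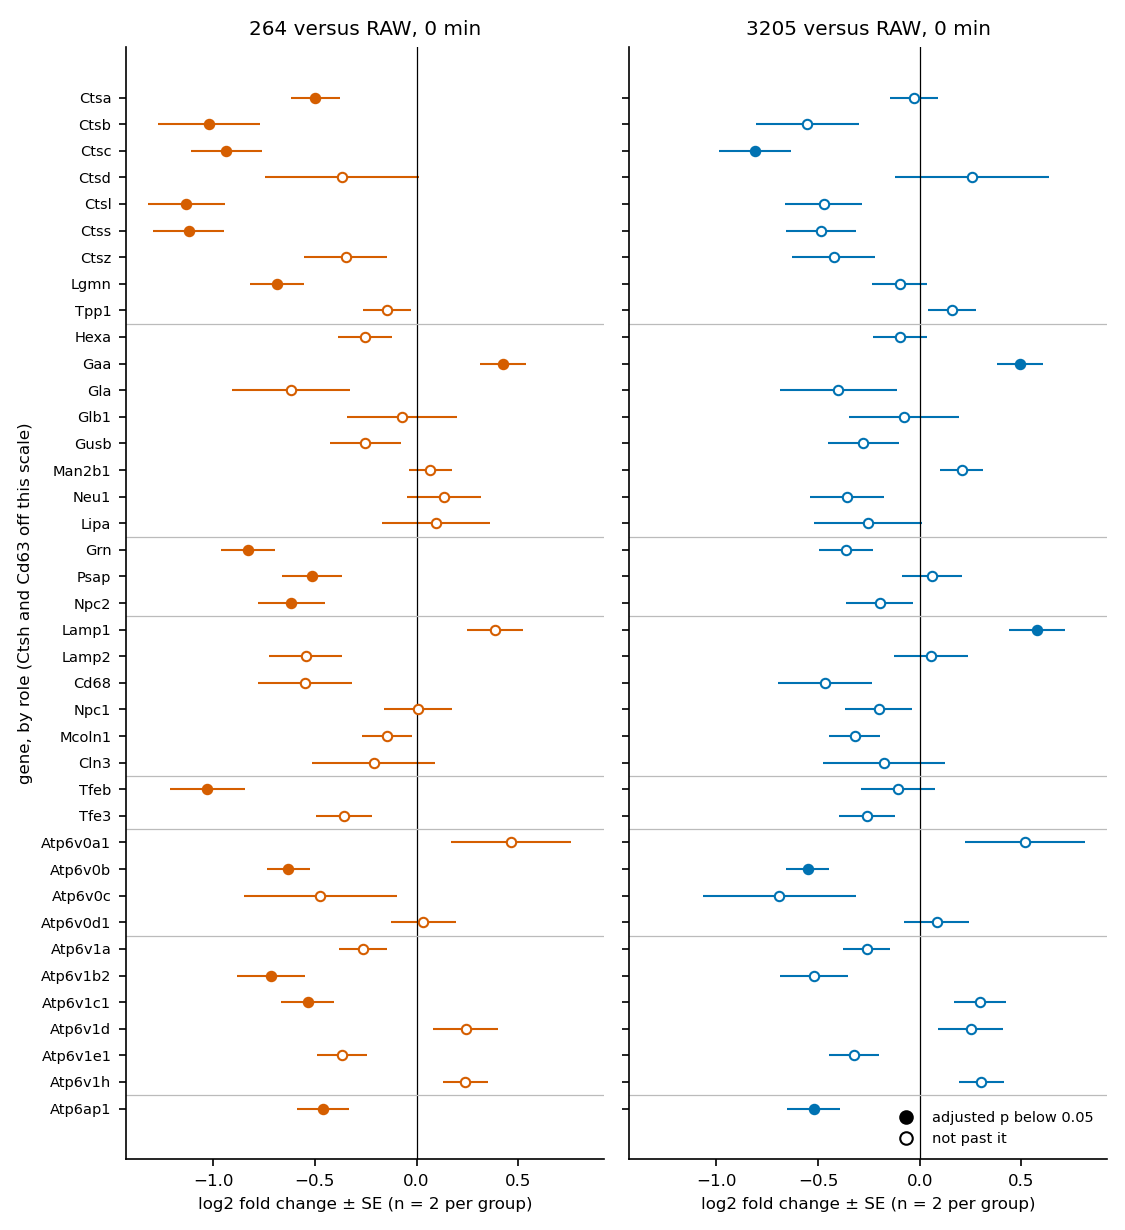
Log2 fold change (points, with SE as bars) of 39 genes in 264 (left) and 3205 (right) against RAW at 0 min, n = 2 libraries per group, with genes ordered by role. Filled points have an adjusted p below 0.05. Most proteases, the 3 cofactors and Tfeb are filled and below 0 in 264, and fewer genes are filled in 3205.

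Against RAW, 3205 was called in 7 of 41 genes at each time, 17.1% of them. At 0 min 3 were higher and 4 lower, where 14.3% of all genes were called (8.42% higher, 5.89% lower). At 60 min 2 were higher and 5 lower, where 15.4% of all genes were called (8.95% higher, 6.46% lower). At 120 min 2 were higher and 5 lower, where 13.9% of all genes were called (7.94% higher, 5.99% lower). Among the 8222 genes of high level 15.6%, 17.5% and 15.5% were called, so in this fit the share of the 41 was close to the background at each time. With libraries paired by replicate number 17, 15 and 20 of the 41 were called. That pairing called 4581, 4833 and 4753 of the 17301, 17301 and 17450 genes tested, against 2476, 2666 and 2430 without it. The median log2 fold change of the 41 genes was -0.20, -0.23 and -0.13, and of all genes -0.0026, 0.02 and 0.01. Of 9 genes called at any time, 6 were called at all 3 times, namely Ctsh, Cd63, Ctsc, Gaa, Atp6v0b and Atp6ap1. The same count over all genes was not made. Ctsc was at 2091 and 3159 normalized reads in 3205 and 4348 and 4677 in RAW at 0 min, -0.81 ± 0.18 (limma adjusted p = 0.013), a call lost without either RAW library. With only the compared groups fitted, the 0 min calls of Ctsc, Gaa, Lamp1, Atp6v0b and Atp6ap1 were lost. At 120 min the calls of Gaa and Atp6v0b were each lost in 2 of 10 other settings and that of Atp6ap1 in 4 of 10. The calls of Ctsh and Cd63 were lost in no other setting at any time. Without RAW replicate 1 or 2 the 0 min count was 3 or 4, and without 3205 replicate 1 or 2 it was 6 or 8. At 60 min it was 4 or 5 without RAW replicate 1 or 2 and 3 or 4 without 3205 replicate 1 or 2. At 120 min it was 2 or 4 without RAW replicate 1 or 2 and 3 without either 3205 library.

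The derived lines were also compared with each other, in a fit of all 18 libraries chosen after the data were seen. Of the 41 genes 7 were higher in 3205 than in 264 at 0 min and 7 at 60 min, 6 were higher at 120 min, and none was lower at any time. Of all genes 11.5% were called at 0 min (5.97% higher, 5.53% lower), 11.1% at 60 min (5.88% higher, 5.23% lower) and 12.3% at 120 min (6.31% higher, 5.98% lower). Of the 8222 genes of high level 13.9%, 13.5% and 15.3% were called. With lower shares that small, few of 41 genes would be called lower at the background rate. With only the compared groups fitted, 1 of the 41 was called at 0 min (Cd63), 5 at 60 min and 2 at 120 min. The median log2 fold change of the 41 genes was 0.10, 0.14 and 0.16, and of all genes 0, 0.02 and 0.0039. With libraries paired by replicate number 15, 17 and 17 were called, of which 1, 2 and 2 were lower in 3205. That pairing called 3886, 3729 and 4087 of all 17367 genes, against 1997, 1930 and 2135 without it. Atp6v1c1 was at 7519 and 9098 normalized reads in 3205 and 4247 and 5077 in 264 at 0 min. All 6 libraries of 3205 lay above all 6 of 264, with log2 fold changes of 0.83 ± 0.11 at 0 min (limma adjusted p = 0.00033), 0.82 ± 0.11 at 60 min and 0.94 ± 0.11 at 120 min, and the 0 min call was lost with only the compared groups fitted (adjusted p 0.106). RAW lay between the 2 lines, at 6670.5 to 7477.

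Lgmn was at 15546 to 19673 in 3205 and 9490.1 to 12039 in 264 over the 3 times, with no overlap (0.59 ± 0.12 at 0 min, adjusted p = 0.007), a call lost without 3205 replicate 1. Tfeb (0.92 ± 0.19 at 0 min, adjusted p = 0.006), Psap (0.57 ± 0.13, adjusted p = 0.014) and Grn (0.47 ± 0.13, adjusted p = 0.035) were likewise higher in 3205 at each time, and Ctsa at 0 and 60 min. At 0 min the Tfeb call was lost without 264 replicate 2, the Psap call lost without 3205 replicate 1, 264 replicate 1 or 264 replicate 2, and the Grn call lost without 3205 replicate 1, 264 replicate 1 or 264 replicate 2. At 0 min the count was 3 without 264 replicate 2, 4 without 3205 replicate 1, 5 without 264 replicate 1 and 8 without 3205 replicate 2. At 60 min it was 3 without 3205 replicate 1 and 4 without 264 replicate 2, and 5 without either of the others. At 120 min it was 4 to 6, lowest without 3205 replicate 1.

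**Figure D4:**
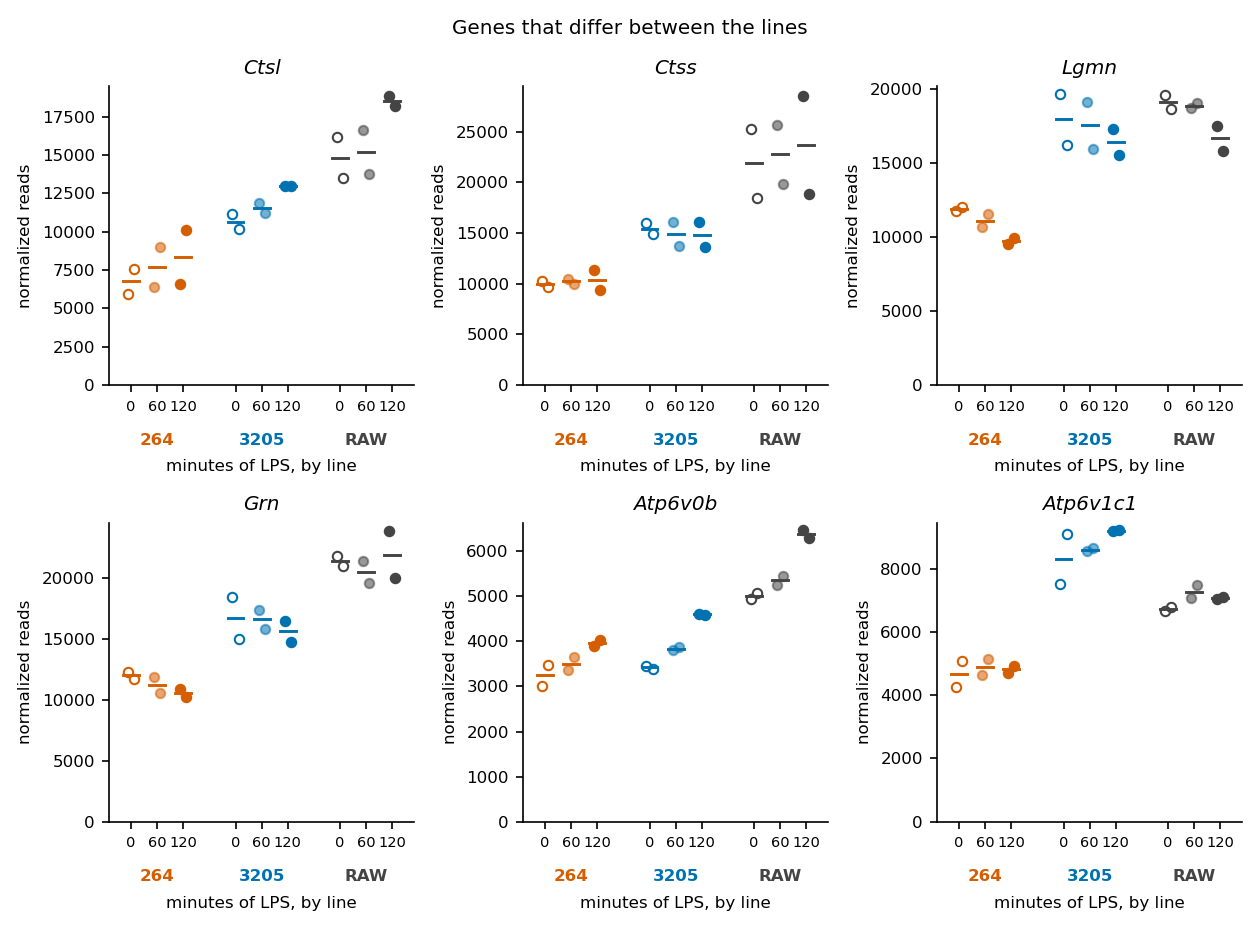
Normalized reads of Ctsl, Ctss, Lgmn, Grn, Atp6v0b and Atp6v1c1 in each library (points) with group means (bars), against minutes of LPS by line (264 orange, 3205 blue, RAW grey). In each panel the 264 libraries lie below the RAW libraries of the same time, and Atp6v1c1 is highest in 3205.

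After 60 min of LPS none of the 41 genes passed in any line, against 1.19% of all genes in 264, 1.23% in 3205 and 2.98% in RAW. Of the 8222 genes of high level 1.87%, 2.06% and 4.31% passed in the same lines. At an unadjusted p below 0.05 limma gave 1 of the 41 genes in 264, 1 in 3205 and 2 in RAW. How many of all genes reached that unadjusted p was not counted. At an adjusted p below 0.05 edgeR on recovered reads called 0 of the 41 in each line. Over all genes it called 205 in 264, 208 in 3205 and 465 in RAW. DESeq2 called 1 of the 41 in 264, 0 in 3205 and 1 in RAW. Over all genes DESeq2 called 512, 508 and 874 in the same lines. The median log2 change of the 41 genes was 0.01, 0.0084 and 0.03 in 264, 3205 and RAW, and of all genes -0.0090, -0.0039 and -0.0020. Tfe3 came nearest. It was at 5429.9 and 5522 normalized reads at 60 min and 3182 and 4029 at 0 min in 264, and at 5109.7 and 5359 at 60 min and 3683 and 3994 at 0 min in 3205. In RAW it was at 6266 and 7541 at 60 min and 4384 and 4808 at 0 min. All 60 min libraries lay above the 0 min libraries of their line. The log2 fold change was 0.61 ± 0.14 in 264 (limma adjusted p = 0.084), 0.45 ± 0.14 in 3205 (adjusted p = 0.29) and 0.58 ± 0.14 in RAW (adjusted p = 0.059). With libraries paired by replicate number Tfe3 passed in all 3 lines (adjusted p 0.005 in 264, 0.026 in 3205 and 0.004 in RAW), the 1 gene of the 41 that did in each. That pairing called 691 of all 17301 genes in 264, 691 in 3205 and 1398 in RAW. DESeq2 called Tfe3 in 264 and RAW.

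After 120 min of LPS 2 of the 41 genes were called in 264 (1 higher, 1 lower), where 5.43% of all genes were (2.88% higher, 2.55% lower). In 3205 2 were called (1 higher, 1 lower), where 5.03% of all genes were (2.89% higher, 2.14% lower). In RAW 5 were called (3 higher, 2 lower), where 10.6% of all genes were (5.08% higher, 5.52% lower). The shares, 4.88%, 4.88% and 12.2%, were close to those of all genes and below those of the 8222 genes of high level, 8.71%, 7.95% and 15.5%. With the replicate pairing the counts at 120 against 0 min were 6, 8 and 9 in 264, 3205 and RAW, where 2859, 2496 and 4137 of all 17450 genes were called. Without 1 library they were 0 to 2 in 264 and 0 to 1 in 3205, and 1 in RAW (Tfeb) whichever of the 4 libraries was left out. The median log2 change of the 41 genes at 120 against 0 min was 0.05, 0.03 and 0.06, and of all genes -0.01, -0.03 and 0. Between 120 and 60 min, 1 gene was lower in 264, where 2.29% of all genes were called (1.15% higher, 1.14% lower). In 3205 1 was lower, where 2.27% were called (1.09% higher, 1.19% lower), and in RAW 1 was higher and 2 lower, where 7.3% were called (3.42% higher, 3.88% lower). Pairing by replicate number called 1374 of all 17367 genes in 264, 1210 in 3205 and 3213 in RAW for that step. With the replicate pairing the counts of that step were 2, 2 and 6, and without 1 library they were 0 to 1 in 264, 0 to 1 in 3205 and 2 in RAW.

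Tfeb fell in all 3 lines. It was at 237 and 224 normalized reads at 120 min and 618 and 477 at 0 min in 264, and at 459 and 624 at 120 min and 962 and 1103 at 0 min in 3205. In RAW it was at 442 and 484 at 120 min and 1186 and 1039 at 0 min. In no line did the libraries of the 2 times overlap. The log2 fold change was -1.23 ± 0.20 in 264 (limma adjusted p = 0.006), -0.94 ± 0.20 in 3205 (adjusted p = 0.024) and -1.26 ± 0.20 in RAW (adjusted p = 0.003). The RAW call held without any 1 of its 4 libraries, the 264 call was lost without 264 0 min replicate 1, and the 3205 call lost without 3205 120 min replicate 1, 3205 0 min replicate 1 or 3205 0 min replicate 2. Both were also lost with only the compared groups fitted, and the 3205 call without limma's trend. At 60 min its log2 change from 0 min was -0.11 in 264, -0.14 in 3205 and -0.15 in RAW, with overlapping libraries, and from 60 to 120 min it fell in every line (-1.13 ± 0.19, -0.80 ± 0.19 and -1.12 ± 0.19 in 264, 3205 and RAW, in a fit of all 18 libraries). The 264 call of that step was lost without 264 120 min replicate 1 or 264 60 min replicate 1, and the 3205 call lost without 3205 120 min replicate 1, 3205 60 min replicate 1 or 3205 60 min replicate 2. With only the compared groups fitted both were lost. The 3205 call (limma adjusted p = 0.046) was lost in 5 of 9 other settings in all, edgeR and TMM scaling among them, and the 264 call in 1 of 9.

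Tfe3 rose at 120 min, by 0.72 ± 0.16 in 264 (limma adjusted p = 0.031) and 0.62 ± 0.16 in RAW (adjusted p = 0.039), and in 3205 the change was 0.31 ± 0.16 (adjusted p = 0.41). The 264 call was lost without 264 120 min replicate 1, 264 120 min replicate 2 or 264 0 min replicate 1. The RNA of the 2 factors thus moved in opposite directions in 264 and RAW. Atp6v1h, the H subunit of the V1 sector, was at 7300.0 and 7596 normalized reads at 120 min and 4788 and 5691 at 0 min in 3205, and at 6132 and 5645 at 120 min and 4372 and 4094 at 0 min in RAW. All 120 min libraries of either line lay above those of 0 min. It rose by 0.51 ± 0.12 in 3205 (adjusted p = 0.040, lost without 3205 120 min replicate 1, 3205 120 min replicate 2 or 3205 0 min replicate 1) and 0.48 ± 0.12 in RAW (adjusted p = 0.033), and was 0.47 ± 0.12 in 264 (adjusted p = 0.055). Npc1, the membrane transporter that exports cholesterol from lysosomes, was at 1512 and 1707 at 120 min and 2329 and 2875 at 0 min in RAW with no overlap between times (-0.69 ± 0.18, adjusted p = 0.035). In 264 and 3205 it did not pass (-0.28 and -0.04). The RAW calls of Tfe3, Atp6v1h, Npc1 and Cln3 were each lost without any 1 of the 4 libraries, and those of Tfe3, Atp6v1h and Npc1 also without limma's trend. In RAW the calls of Tfe3 and Atp6v1h were also lost by edgeR on recovered reads. That of Tfe3 was lost with no filter on low values as well. The calls of Tfe3 in 264 and Atp6v1h in 3205 were lost without the trend and with only the compared groups fitted. The Atp6v1h call in 3205 was also lost with no filter on low values.

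Cln3, which encodes a lysosome membrane protein mutated in human juvenile Batten disease, was at 4329.8 and 5083 normalized reads at 120 min and 1628 and 2191 at 0 min in RAW, with 1373 and 1724 at 60 min. It was at 2655 and 3163 at 120 min and 1255 and 2119 at 0 min in 264, and at 2283 and 2837 at 120 min and 1348 and 2074 at 0 min in 3205. In every line the 120 min libraries lay above those of 0 min. Cln3 did not pass in 264 (0.83 ± 0.28, limma adjusted p = 0.14) or 3205 (0.61 ± 0.28, adjusted p = 0.33) and passed in RAW (1.31 ± 0.28, adjusted p = 0.016), and it passed in all 3 with the replicate pairing (adjusted p 0.002 in 264, 0.014 in 3205 and 9.6e-05 in RAW). From 60 to 120 min in RAW it rose by 1.61 ± 0.28 (adjusted p = 0.004), a call that held without any 1 library. Cln3 (chr7:126571207-126585817) overlaps Apobr by 900 bases, and Apobr overlaps Il27. Apobr was at 6194 and 5039 at 120 min and 3712 and 2949 at 0 min in RAW, and Il27 at 4170.0 and 1945 at 120 min and 39.2 and 17.4 at 0 min. The sources used here do not say whether the counts used strand, and the part of reads from these neighbours in the Cln3 values was not tested.

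**Figure D5:**
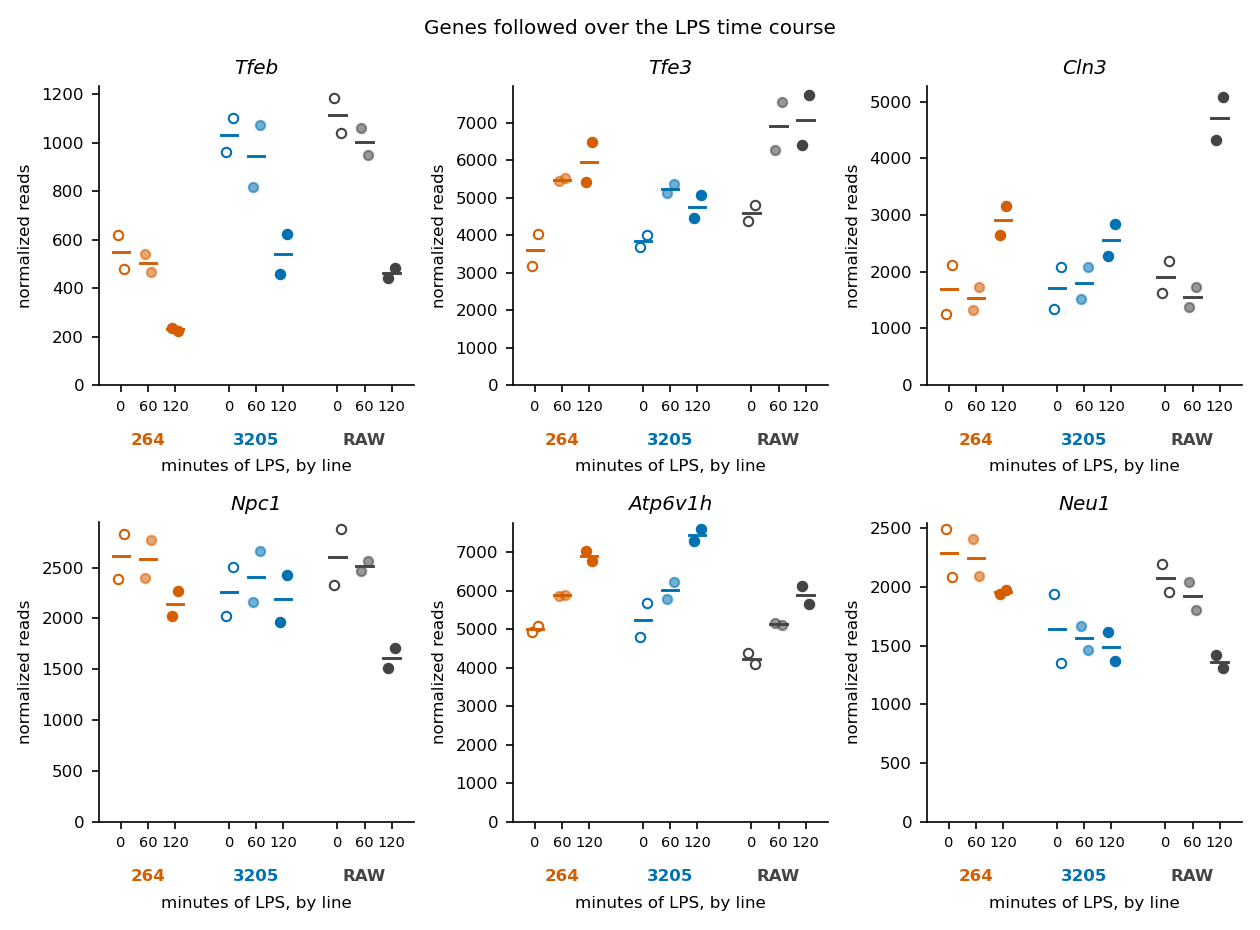
Normalized reads of Tfeb, Tfe3, Cln3, Npc1, Atp6v1h and Neu1 in each library (points) with group means (bars), against minutes of LPS by line (264 orange, 3205 blue, RAW grey). Tfeb is low at 120 min in every line, and Tfe3 is above its 0 min level at 60 min in every line.

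None of the 41 genes had an LPS response that differed between a derived line and RAW, at 60 or 120 min, by limma (0 of 41 in each of 4 comparisons). Of all genes 0.0173% were called in 264 at 60 min and 0.0229% at 120 min, and 0.00578% in 3205 at 60 min and 0.00573% at 120 min. At an unadjusted p below 0.05 limma gave 0 of the 41 in 264 and 0 in 3205 at 60 min. At 120 min it gave 1 in 264 (Cd63) and 1 in 3205 (Npc1). All genes that reached this unadjusted p were not counted. Cd63 in 264 was near the floor, at 9.1 and 9.41 normalized reads at 0 min and 6.87 and 7.34 at 120 min. At an adjusted p below 0.05 DESeq2 and edgeR on recovered reads gave 0 of the 41 in each comparison. Over all genes DESeq2 called 25 and 54 in 264 at 60 and 120 min, and 22 and 91 in 3205. Over all genes edgeR called 4 and 2 in 264, and 1 and 4 in 3205. With the replicate pairing edgeR gave 1 (Npc1), in 3205 at 120 min, and its calls over all genes were not counted. The response of Npc1 in 3205 minus that in RAW was 0.64 ± 0.25 at 120 min (limma adjusted p = 0.94), that of Cln3 -0.71 ± 0.40 (adjusted p = 1), and that of Tfeb 0.32 ± 0.28 (adjusted p = 1). With 2 libraries per group these errors are wide, and the values do not show that the responses were alike.

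Other genes of the same organelle, from lists written with earlier results of these data known, were read beside the 41. Of 31 other lysosomal hydrolases, 11 were lower and 1 higher in 264 than in RAW at 0 min (median log2 fold change -0.41), and 5 were lower and 2 higher in 3205 (-0.16). The background for these and the next lists is 5.57% of all genes lower and 7.61% higher in 264, and 5.89% lower and 8.42% higher in 3205. Those of smallest p in 264 included cathepsin F (Ctsf), at 121 and 72.7 normalized reads in 264 and 2087 and 1598 in RAW (-4.27 ± 0.66, limma adjusted p = 0.002), and cathepsin K (Ctsk), the osteoclast collagenase, at 1.82 and 1.71 in 264 and 179 and 40.5 in RAW (-4.96 ± 0.88, adjusted p = 0.004). Palmitoyl-protein thioesterase 1 (Ppt1) was lower in 3205, at 3552 and 3419 against 8894 and 6686 in RAW (-1.15 ± 0.16, adjusted p = 0.001). Of 24 other membrane and sorting genes 4 were lower and none higher in 264 at 0 min (median -0.13), and 1 was lower and 2 higher in 3205 (-0.10). Igf2r, the mannose 6-phosphate receptor that carries hydrolases to lysosomes, was at 24.6 and 70.1 in 264 and 3828 and 3764 in 3205, against 8317 and 6862 in RAW. It was lower in 264 (-7.47 ± 0.69, adjusted p = 8e-05).

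Of 10 other V-ATPase subunits tested, 2 were lower in 264 at 0 min (median -0.28) and none was called in 3205 (-0.34). Atp6v0e2 was at 741 and 757 normalized reads in 264 and 1222 and 1409 in RAW (-0.81 ± 0.13, limma adjusted p = 0.003). The other was Atp6v0d2, the d2 form found in osteoclasts, at 14.6 and 21.4 in 264 and 278 and 70.6 in RAW (-2.92 ± 0.70, adjusted p = 0.021). Of 17 Rag, Ragulator and mTORC1 genes tested, 1 was higher and 1 lower in 264 (median -0.09), and 2 were higher in 3205 (-0.14). Lamtor4, of the Ragulator that anchors mTORC1 to lysosomes, was higher in both lines (0.65 ± 0.14 in 264 and 0.66 ± 0.14 in 3205, adjusted p = 0.014 and 0.014). Of 17 autophagy genes 2 were higher in 264 (median -0.02) and 3 higher and 1 lower in 3205 (0.09). Wipi1 was at 1551 and 1074 in 264 and 143 and 60.2 in RAW (3.78 ± 0.55, adjusted p = 0.001). Gabarapl1 was at 864 and 793 in 3205 and 2021 and 1714 in RAW (-1.17 ± 0.12, adjusted p = 0.00018).

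After 120 min of LPS, 2 of the 31 other hydrolases were lower in each derived line, and 4 were lower and 1 higher in RAW, where 2.55% of all genes were lower in 264, 2.14% in 3205 and 5.52% in RAW, and 5.08% higher in RAW. The lysosomal phospholipase gene Pla2g15 fell in all 3 lines, with log2 fold changes of -1.68 ± 0.19 in 264 (limma adjusted p = 0.00096), -1.27 ± 0.19 in 3205 (adjusted p = 0.005) and -1.76 ± 0.19 in RAW (adjusted p = 0.00047). Sgsh, the heparan sulfate sulfamidase, fell in all 3 as well (-1.14, -1.01 and -1.56 in the same order). So did Tpcn1, an endolysosomal cation channel gene (-0.58, -0.59 and -0.81). Sqstm1, which encodes the autophagy receptor p62, rose in all 3, by 1.97 ± 0.45 in 264 (adjusted p = 0.034), 2.36 ± 0.45 in 3205 (adjusted p = 0.016) and 1.97 ± 0.45 in RAW (adjusted p = 0.021).

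Set beside the promoter sequences, the 12 genes with TCACGTG or CACGTGA had a median log2 fold change of -0.24 in 264 against RAW at 0 min (1 called higher, 3 lower), and the 23 genes with a window and no match -0.46 (0 higher, 9 lower). In 3205 the medians were -0.09 (2 higher, 1 lower) and -0.28 (0 higher, 3 lower). Of all genes 7.61% were higher and 5.57% lower in 264, and 8.42% higher and 5.89% lower in 3205. Genes with a match were thus called in both directions, among them Gaa and Lamp1 above RAW and Atp6v0b below it, and Mcoln1 in neither.

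At an adjusted p below 0.05, the authors' deposited table called none of the 41 genes after LPS in any line, where 0.446% to 1.88% of genes with an adjusted p were called. The header of the adjusted p in the authors' deposited table for 264 at 120 min names 60 min, and its values lie within 2.93e-07 of a Benjamini-Hochberg adjustment of the 120 min p-values over 15697 genes. For 264 and 3205 against RAW at 60 and 120 min the authors' deposited table called 2 of the 41 each time, Ctsh higher and Cd63 lower, where 3.12% to 3.61% of genes were called. Tfeb in RAW at 120 min, with a deposited log2 fold change of -1.26, was among those not called. DESeq2 run here on recovered reads called 8 of the 41 in RAW at 120 min of LPS, and 2570 of all genes. It called 20 and 17 of the 41 for 264 against RAW at 60 and 120 min, and 2946 and 2747 of all genes. The deposited test is thus unlike those used here, and counts at the same threshold are not comparable.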

How the data were processed

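Total RNA of the 18 cell line libraries was sequenced with an Illumina TruSeq kit, per the labels. Per the submitters' processing notes, reads were handled with Trim Galore 0.5.0, STAR 2.4.2 on mm10, featureCounts (Subread 1.4.6), DESeq2 and R 3.4.0. The authors deposited, for each gene and library, a signal that is the read count divided by 1 size factor per library. Divided by the value of 1 read, 100% of deposited values were whole within 0.1 read, giving 13084927 to 53860392 reads per library. The authors' deposited tables also hold log2 fold changes and adjusted p-values of their own comparisons, with the method of adjustment not stated. The header WT was taken as the line titled RAW, and 56 of the 74 samples were not analysed here.

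Genes with a mean of at least 1 normalized read were tested with limma 3.58.1 (R 4.3.3) on log2 of the value plus 1, with an intensity trend, group means and Benjamini-Hochberg adjustment over all genes of each table (17301 at 60 min, 17450 at 120 min). Adding 1 understates the change of low genes. The 60 and 120 min tables were fitted apart, with 12 libraries each, and the 0 min comparisons of lines come from the 60 min table. The fit of 18 libraries (17367 genes), for 120 against 60 min and 3205 against 264, was added after the data were seen. On recovered reads edgeR 4.0.16 and DESeq2 1.42.0 were alternatives, and for 264 against RAW at 0 min edgeR called 2097 genes where limma called 2280. Scripts were tested on simulated data.

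Libraries with the same replicate number deviated together: over 36 pairs of groups the correlation, across genes, of replicate 1 minus replicate 2 was 0.159 to 0.614 (median 0.298). Fits with the replicate number as a block are therefore given where they change a count by over 1.5 times. The members and the other gene lists were chosen with earlier results of these data known. Any of the 41 genes could be named, and of each other list up to 3 genes of smallest p per comparison. Promoter windows are from RefSeq tables of GRCm38.p6, matched by symbol. Coordinates of genes are from the same RefSeq annotation.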

Additional observations from a re-analysis of the deposited data

How the results depend on the processing

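Of 1019 values that the 102 calls of single genes took under other settings, 116 were no longer called and 0 were reversed, and with 1 library left out 182 of 408 were no longer called and 0 were reversed. Counts below are of the 41 genes, in the order 264, 3205, RAW where 3 lines are given. With the replicate block (pairing) in limma, the counts after LPS were 1, 1 and 1 at 60 min, 6, 8 and 9 at 120 min, and 2, 2 and 6 between 120 and 60 min. With that block 264 against RAW gave 26 at 120 min, 3205 against RAW 17, 15 and 20 at 0, 60 and 120 min, and 3205 against 264 gave 15, 17 and 17. It changed no other count of the 41 by over 1.5 times. The block also raised the calls over all genes, such as from 2348 to 4415 for 264 against RAW at 120 min. With the replicate block in edgeR on recovered reads the counts after LPS were 1, 1 and 1 at 60 min, 6, 10 and 10 at 120 min, and 2, 3 and 6 between 120 and 60 min. The same fit gave 25 for 264 against RAW at 120 min, 17, 13 and 19 for 3205 against RAW, 14, 17 and 17 for 3205 against 264, and 1 for the response of 3205 at 120 min. Calls over all genes were not counted in that edgeR fit. DESeq2 gave 1 in 264 and 1 in RAW at 60 min, and 5 in 264 and 8 in RAW at 120 min. Over all genes it called 512 and 874 at 60 min, and 1806 and 2570 at 120 min, in the same lines. Between 120 and 60 min DESeq2 gave 2, 3 and 5, and 918, 915 and 1712 over all genes. It gave 14 for 3205 against RAW at 120 min and 11 for 3205 against 264 at 0 min. Over all genes these were 3012 and 2464. edgeR without the block gave 3 in RAW at 120 min and 0 in 3205 between 120 and 60 min. Over all genes that fit called 1709 and 385 there. One fit of all 18 libraries gave 4 in 264 and 8 in RAW at 120 min, and 14 for 3205 against RAW at 120 min. For these, calls over all genes were not counted.

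In limma without the trend the counts at 120 min of LPS were 1, 0 and 2, those of 264 against RAW 10 at 0 min and 11 at 60 min, that of 3205 against RAW 3 at 120 min, and that of 3205 between 120 and 60 min 0. With only the groups compared in the fit, 264 and 3205 each gave 0 at 120 min of LPS and 0 between 120 and 60 min, 264 against RAW gave 9 at 0 min, 3205 against RAW 2 at 0 min and 4 at 120 min, and 3205 against 264 gave 1 at 0 min and 2 at 120 min. With no filter on low values 3205 gave 1 at 120 min of LPS and 0 between 120 and 60 min, and TMM scaling also gave 0 there. TMM moved the median of all genes by at most 0.034 on the log2 scale. Calls over all genes were not counted under these settings. The cause of these moves was not tested.

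With 1 library left out, the counts after LPS were 0 to 0 at 60 min in each line, 0 to 2 in 264, 0 to 1 in 3205 and 1 to 1 in RAW at 120 min, and 0 to 1 in 264, 0 to 1 in 3205 and 2 to 2 in RAW between 120 and 60 min. Those of 264 against RAW were 7 to 13, 8 to 10 and 8 to 9 at 0, 60 and 120 min, those of 3205 against RAW 3 to 8, 3 to 5 and 2 to 4, and those of 3205 against 264 3 to 8, 3 to 5 and 4 to 6. Responses gave 0 to 0. A group left with 1 library was assumed to vary like the others.

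With 2 libraries per group the spread is estimated from few degrees of freedom. Every one of the 41 genes had at least 6 reads in every library, the lowest being Cd63 in 264.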

Other observations

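Of the 41 genes, 17 (41.5%) had the same replicate number higher in all 9 groups, 9 with replicate 1 and 8 with replicate 2, and of the 8222 genes with a mean of 500 normalized reads or more 34.6% did. Those with replicate 1 higher were Ctss, Ctsh, Tpp1, Glb1, Grn, Npc2, Lamp2, Atp6v0d1 and Atp6v1d. Those with replicate 2 higher were Ctsd, Gusb, Gla, Npc1, Cln3, Tfe3, Atp6v0a1 and Atp6v1c1. The labels do not say what a replicate number stands for.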
